A study of Mus musculus with 15 samples.

Results

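The MYC, MAX and MXD network was described as 9 genes (Myc, Mycl, Max, Mxd1, Mxd3, Mxd4, Mxi1, Mnt and Mga) of the 32372 genes in the files. The 9 names were listed by gene family, and the family was chosen by a measured value: the log2 fold change of Mycl at day 1 of ATV:4D9 against ATV:RSV, which was among the lowest of all genes, rank 10 from the lowest of 14260. Values of that comparison are therefore given as a description, with no p. Counts of genes past the threshold at day 1 are part of that description and support nothing. All 9 genes passed the filter on low counts, Mxd3 only through its counts at day 1 of ATV:4D9 (106 to 170 unique molecular identifiers, UMIs, per mouse, against 0 to 24 in the other 12 mice), so for Mxd3 the filter itself favours a difference.

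The samples were single-cell libraries of microglia, enriched with CD45 MicroBeads from cortex and hippocampus of 15 male C57BL/6J hTfR KI mice aged 3.5 months. hTfR KI mice carry human transferrin receptor sequence in the mouse gene, and the control mice carried it too. Every mouse received a single dose of 10 mg/kg, either of ATV:4D9, an antibody to the microglial receptor TREM2 whose transport vehicle (ATV) carries it across the blood-brain barrier by way of the transferrin receptor, or of ATV:RSV, a control antibody with the same vehicle. ATV:RSV mice were taken at day 1 and ATV:4D9 mice at day 1, 7, 14 or 28, with 3 mice per group, and every one of the 3 batches held all 5 groups, so the later days have no control of the same day and each comparison with ATV:RSV uses the same 3 control mice. The 102043 cells (5667 to 7596 per mouse) fell into deposited clusters 0, 1 and 2, and the counts were summed per mouse (32341960 to 70307384 UMIs). Levels are given as CPM, the UMIs of a gene relative to all UMIs of the mouse, scaled by trimmed means (TMM) as edgeR does. The p-values weigh a difference between groups against the spread between mice. In the main fit that spread was estimated over all 15 mice without a batch term.

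Cells at day 1 of ATV:4D9 held more UMIs, with medians of 8202 to 8996 per cell against 4694 to 6117 in the other mice, and 19.6% to 27.4% of them held a UMI of the proliferation markers Mki67 or Top2a, against 0.169% to 0.684% elsewhere. All 8 microglia markers were detected in every group, with a summed level of 18262 to 19859 CPM in the other mice and 14169 to 15827 CPM at day 1 of ATV:4D9. Of the other cell types, the 6 neutrophil markers summed to 158 CPM in replicate 3 of day 7 and to at most 9.52 CPM in every other mouse. T cell markers summed to at most 1.56 CPM. At day 1 of ATV:4D9 the marker sums of monocytes (16.2 to 20.7 CPM against at most 12.3 elsewhere) and border-associated macrophages (19.8 to 29.7 against at most 19.5) lay above all other mice, and those of astrocytes (128 to 138 against at least 185) and oligodendrocytes (32.4 to 36.7 against at least 44.8) lay below them, and their part in the day 1 values was not tested. Most of the monocyte sum at day 1 of ATV:4D9 was Plac8 (13.3 to 16.6 CPM against at most 2.11 elsewhere). Of the same list Vcan was also higher, but Ccr2 was lower (at most 2.22 against at least 2.47). Most of the astrocyte sum was Slc1a3 (at least 119 CPM, and at least 173 elsewhere), while Gfap was higher (at least 0.768 against at most 0.681). Of the border-associated macrophage list Pf4 (9.11 to 13.4 CPM against at most 6.79 elsewhere), Cbr2 and Ms4a7 were higher. Mrc1 (4.96 to 7.70 against 4.37 to 9.38), Cd163, Lyve1 and F13a1 overlapped with the other mice. The sums are thus not read as numbers of monocytes, border-associated macrophages or astrocytes. In sums over a mouse, fewer cells of a kind and less RNA per cell cannot be told apart. Cell barcodes were shared between mice at 5 to 27 sequences per pair of mice.

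MYC proteins are basic helix-loop-helix leucine zipper transcription factors that bind DNA as dimers with MAX, at E-box sequences, and activate genes of growth, ribosome assembly and metabolism. MAX also pairs with the MXD proteins (Mxd1, Mxi1, Mxd3 and Mxd4) and with MNT and MGA, which occupy the same kind of site and recruit corepressors. The balance between the activating and the repressing dimers is known to change when cells leave or enter rest. Microglia are the resident macrophages of the brain and seldom divide in the healthy adult.

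All 9 genes are annotated as protein coding (mm10, GENCODE M21). The activators are Myc (chr15:61985391-61990374, plus strand) and Mycl (chr4:122995652-123002485, plus), and their partner is Max (chr12:76937269-76962201, minus). The MXD genes are Mxd1 (chr6:86647042-86669161, minus), Mxd3 (chr13:55325168-55329823, minus), Mxd4 (chr5:34173883-34187720, minus) and Mxi1 (chr19:53310518-53375810, plus). Mnt lies at chr11:74830920-74845725 (plus) and Mga at chr2:119897228-119969581 (plus). Gm47218 overlaps Max and Gm44292 overlaps Mxd1 on the same strand, so counts of Max and Mxd1 are uncertain to the extent that the counting divided reads between these genes.

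RefSeq promoter windows (GRCm38.p6, the build mm10, 250 bases before to 50 after a gene start) were found for 8 of the 9 genes. No window was found for Myc. Because dimers of this network bind E-boxes, the windows were searched on both strands for the canonical E-box CACGTG, which reads the same on both strands, and for a variant, CACGCG, which reads as CGCGTG on the other strand. The canonical E-box occurred in the windows of Max, Mnt and Mxd4, as in 7.15% of all 32851 windows, and the variant in those of Mycl and Mga, as in 9.27% of all windows. The 60 bases around each match are shown 5′ to 3′ on the strand of the gene, with the match in capitals:
Max (chr12:76962246-76962305, minus strand): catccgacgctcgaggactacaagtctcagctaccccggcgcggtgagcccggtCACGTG
Mnt (chr11:74830774-74830833, plus strand): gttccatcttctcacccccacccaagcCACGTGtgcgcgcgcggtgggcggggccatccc
Mxd4 (chr5:34187897-34187956, minus strand): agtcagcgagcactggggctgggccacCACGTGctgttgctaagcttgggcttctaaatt
Mycl (chr4:122995871-122995930, plus strand): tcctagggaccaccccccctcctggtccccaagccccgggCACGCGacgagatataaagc
Mga (chr2:119897168-119897227, plus strand): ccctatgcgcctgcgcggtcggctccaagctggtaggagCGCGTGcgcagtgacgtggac

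Distances are counted from the RefSeq starts, which can differ from the GENCODE coordinates above. The matches began 3 bases before the start of Max, 20 before that of Mycl, 21 before that of Mga, 123 before that of Mnt and 219 before that of Mxd4. The Max match ran across its RefSeq start (76962248). The RefSeq start of Mycl (122995931) and its match lie inside the gene as GENCODE gives it. No match was found for Mxd1, Mxd3 or the 3 windows of Mxi1. A match describes the letters only, and no binding was measured.

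At day 1 of ATV:4D9 the 9 genes did not move together. In CPM, Max and Mxd3 were higher than in ATV:RSV, Mycl, Mxd4, Mxi1, Mnt and Mga were lower, and Myc and Mxd1 overlapped with the control mice. With the threshold used for the other days, 7 of 9 genes passed (2 higher and 5 lower), where 69.2% of all 14260 genes passed, 34.7% higher and 34.6% lower. The same 7 genes did not overlap between the 2 groups, as did 71.5% of all genes. Nothing is read from these counts, since the comparison was the one that chose the genes.

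**Figure D1:**
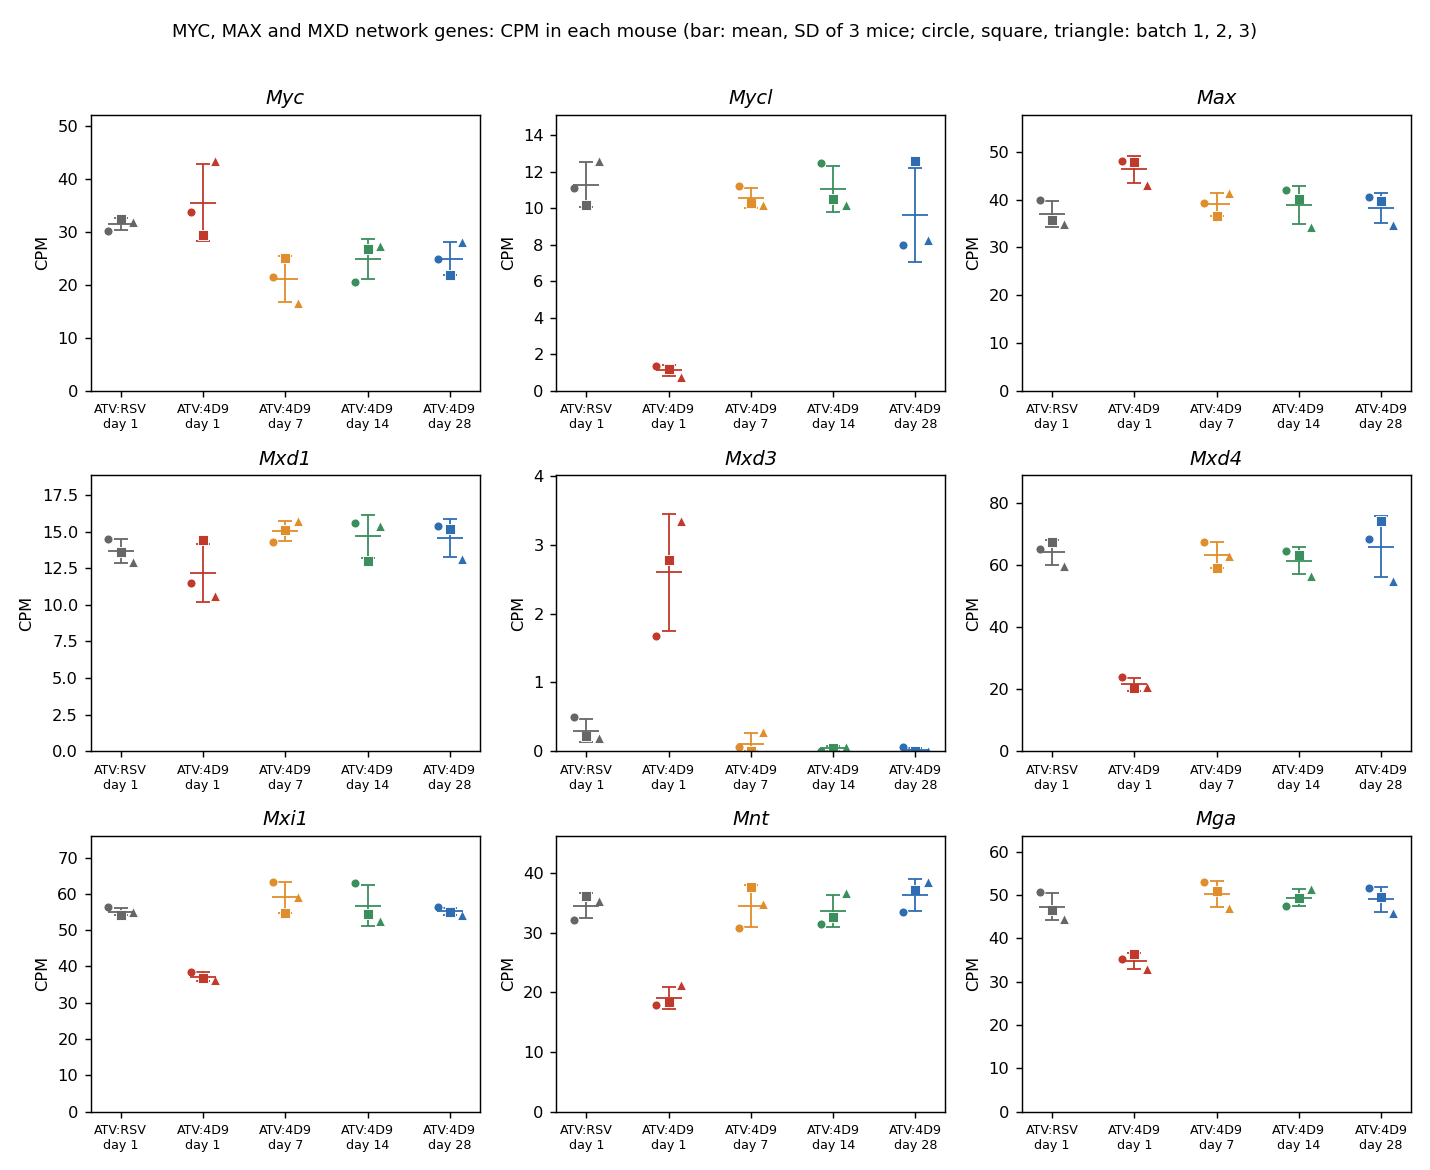
CPM of each network gene (y axis, from 0) in each of the 15 mice by group (x axis), with the mean and SD of the 3 mice as a bar and the batch as the symbol. Mycl sits between 0.749 and 1.37 CPM in the 3 mice of ATV:4D9 day 1 and between 7.97 and 12.6 CPM in the other 12.

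Mycl encodes L-MYC, a MYC protein with weaker transforming activity than c-MYC. Its level was 11.1, 10.2 and 12.6 CPM in the 3 ATV:RSV mice and 1.37, 1.21 and 0.749 CPM at day 1 of ATV:4D9, from 422 to 543 and 35 to 87 UMIs per mouse. No day 1 mouse came near a control mouse, and the log2 fold change was -3.34 (95% interval -3.90 to -2.78). At day 7 the levels were 11.2, 10.3 and 10.2 CPM, at day 14 they were 12.5, 10.5 and 10.2 CPM, and at day 28 they were 7.97, 12.6 and 8.28 CPM. All 3 later groups overlapped with ATV:RSV. The log2 fold changes against ATV:RSV were -0.10 (-0.42 to 0.23) at day 7, -0.02 (-0.34 to 0.29) at day 14 and -0.27 (-0.58 to 0.05) at day 28, and the limma-voom adjusted p was 0.808, 1.000 and 1.000. The intervals leave room for a level at day 28 that is lower than the control by up to 0.58 on the log2 scale, and 2 of the 3 day 28 mice lay below every ATV:RSV mouse.

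The share of cells with a Mycl UMI, after each cell was thinned to 3385 UMIs, was 3.42% to 4.12% among ATV:RSV mice and 0.248% to 0.497% among the day 1 mice of ATV:4D9 (unthinned 5.70% to 7.40% and 0.584% to 1.15%). Snap25, a neuronal transcript that microglia should lack and that can enter droplets as free RNA, was seen at this depth in 1.54% to 1.86% and 0.715% to 1.32% of the same cells. The share of Mycl lay below that of Snap25 at day 1 of ATV:4D9 and above it in ATV:RSV. How much of the remaining day 1 signal of Mycl is free RNA was not tested, and no difference between kinds of day 1 cells is read from it. On days 7, 14 and 28 the thinned share was 2.89% to 4.64% over the 9 mice.

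Myc encodes c-MYC, the widely expressed member and an immediate early gene of many stimuli. It was found at 30.3, 32.4 and 31.9 CPM in the control mice and at 33.9, 29.4 and 43.5 CPM at day 1 of ATV:4D9, so the day 1 mice lay on both sides of the controls. The log2 fold change at day 1 was 0.15 (-0.17 to 0.46) and changed sign under 3 alternatives, to -0.09 where libraries were scaled by their size alone, to -0.59 ± 0.289 (SE) in the cells of cluster 0 and to -0.34 ± 0.351 (SE) in those of cluster 1. Counted per 100 cells, and with the deeper cells of that day, Myc was at 24.5 to 33.9 UMIs at day 1 of ATV:4D9 and at 19.8 to 21.1 in ATV:RSV. After thinning, a Myc UMI was found in 7.74% to 11.3% of the cells at day 1 and in 7.97% to 9.99% in ATV:RSV (unthinned 16.2% to 22.3% and 14.0% to 14.1%).

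Myc fell at day 7. Its level was 21.5, 25.2 and 16.5 CPM, below all 3 ATV:RSV mice, with a log2 fold change of -0.63 ± 0.164 (SE; 95% interval -0.98 to -0.28) and a limma-voom adjusted p of 0.0422. It was the 1 gene of 9 that passed the test at day 7, where 3.98% of all genes passed and 0.996% passed lower. The thinned share of cells with a Myc UMI was 4.47% to 7.05% at day 7, again below every ATV:RSV mouse. Within batches, day 7 was lower than ATV:RSV by -0.48, -0.36 and -0.94 on the log2 scale in batches 1, 2 and 3. The day 7 call was close to the threshold and was lost without replicate 3 of day 7, which had the lowest Myc level (-0.44, adjusted p = 0.264) and also held the neutrophil markers given above, and it was lost as well when replicate 1 of day 7 was left out (adjusted p = 0.0780). Leaving out replicate 1, 2 or 3 of ATV:RSV gave an adjusted p of 0.0748, 0.129 and 0.0993. Leaving out replicate 1 of ATV:4D9 day 1, replicate 2 of day 14 or replicate 1 of day 28, which enter only the shared estimate of spread and the scaling, gave 0.0535, 0.0541 and 0.0518 as adjusted p. Without the 1092 cells that held UMIs of at least 3 markers of another cell type, 9 of them by neutrophil markers, the fold change was -0.63 (adjusted p = 0.0396).

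On the 2 later days Myc stayed below the controls in every mouse, but neither day passed the test. The levels were 20.6, 26.8 and 27.4 CPM at day 14 and 24.9, 21.9 and 28.2 CPM at day 28, against a lowest ATV:RSV value of 30.3 CPM. The log2 fold changes were -0.36 (-0.69 to -0.02, adjusted p = 0.868) and -0.34 (-0.67 to -0.01, adjusted p = 1.000) by limma-voom. Myc was lower than the ATV:RSV mouse of the same batch in 3 of 3 batches on each later day. All 9 later mice lay below all 3 ATV:RSV mice for Myc and for none of the other 8 genes, which is a pattern that 1.02% of all genes showed. The ATV:RSV mice were taken at day 1 only, so the day of sampling and the antibody cannot be told apart in this difference. Below ATV:RSV in order came day 28 and day 14, which differed by 0.02 (-0.32 to 0.35), and day 7, which lay below day 14 by 0.27 (-0.09 to 0.63) and did not differ from it beyond the spread between mice. Day 1 of ATV:4D9 has no fixed place in the order, given its overlap with ATV:RSV and its changes of sign.

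Since Myc responds to cell handling, it was set beside the immediate early genes of dissociation. The 10 genes of that list, Fos and Jun among them, summed to 23685 to 25797 CPM in ATV:RSV, 24144 to 24556 CPM at day 7, 26363 to 27590 CPM at day 14 and 25955 to 27040 CPM at day 28, and to 15268 to 17491 CPM at day 1 of ATV:4D9. The sum overlapped with the controls on day 7, lay above them on days 14 and 28, and lay below them on day 1. Single genes of the list differed from the sum at day 7. Jun was at 4320 to 4633 CPM against 5034 to 5756 in ATV:RSV, below every control mouse as Myc was, and Zfp36 was at 2355 to 2407 against 2071 to 2193 CPM, above every control mouse. Among thinned cells with a Fos UMI, 8.63% to 10.7% held a Myc UMI in ATV:RSV and 4.81% to 7.19% at day 7, and among cells without one the shares were 5.44% to 5.84% and 3.00% to 5.94%, so the mice were apart in the former cells and overlapped in the latter. Sums of 4 marker lists also lay below every ATV:RSV mouse at day 7, with all their genes detected. They were those of neurons (6.91 to 8.05 against 9.42 to 12.1 CPM), endothelial cells (at most 17.3, against up to 26.9), border-associated macrophages (14.9 to 15.9 against 16.2 to 19.5) and microglia (18319 to 18453 against 18500 to 19859). Their part in the result was not tested. Mycn, the other MYC gene, was at 0 to 2 UMIs per mouse and did not pass the filter on low counts.

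Max, the shared partner, was at 40.0, 35.8 and 34.9 CPM in ATV:RSV and at 48.1, 47.9 and 43.1 CPM at day 1 of ATV:4D9. The groups did not overlap, with a log2 fold change of 0.33 (0.15 to 0.51), which was 0.09 where libraries were scaled by size alone. That scaling shifted the median of all genes' log2 fold changes at day 1 by -0.24 and the counts of all genes called from 4942 higher and 4930 lower to 3690 and 6959. After thinning, a Max UMI was found in 12.2% to 13.9% of the cells at day 1 and in 11.8% to 13.8% in ATV:RSV, with overlap. Unthinned, the shares were 27.0% to 32.3% and 19.0% to 23.2%. The fitted log2 fold change at day 1 was 0.02 ± 0.174 (SE) in cluster 0 and 0.14 ± 0.165 (SE) in cluster 1. Later levels of Max ranged from 34.3 to 42.0 CPM, within or around those of ATV:RSV, with log2 fold changes of 0.05 to 0.08.

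The repressive partners split at day 1 of ATV:4D9. Mxd4, an MXD protein known from resting and differentiated cells, was at 65.0, 67.5 and 59.5 CPM in ATV:RSV and at 23.9, 20.2 and 20.6 CPM at day 1. Every day 1 mouse was at or below 23.9 CPM and every other mouse at or above 54.9 CPM, and the log2 fold change was -1.57 (-1.79 to -1.34). Mnt, the broadly expressed MAX partner that antagonises MYC, was at 32.1, 36.1 and 35.3 CPM in ATV:RSV and 17.8, 18.3 and 21.2 CPM at day 1. Its log2 fold change was -0.86 (-1.05 to -0.67), with no overlap. Mxi1 (also called Mxd2) moved from 54.2 to 56.3 CPM down to 36.2 to 38.5 CPM (-0.57, -0.71 to -0.43). Mga, a large protein that pairs with MAX and also carries a T-box domain, moved from 44.5 to 50.7 CPM down to 32.8 to 36.3 CPM (-0.44, -0.58 to -0.30). Counted per 100 cells, where the deeper cells of day 1 raise every gene, Mxd4 (16.1 to 21.4 against 38.4 to 45.3 UMIs) and Mnt (15.3 to 16.5 against 22.0 to 22.8) stayed apart from ATV:RSV, while Mxi1 (28.2 to 34.4 against 33.1 to 39.2) and Mga (25.6 to 31.5 against 28.5 to 35.3) overlapped with it.

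Mxd1, the founding MXD gene, which is induced when myeloid cells mature, was at 14.5, 13.6 and 12.9 CPM in ATV:RSV and at 11.5, 14.4 and 10.6 CPM at day 1. The groups overlapped in CPM, with a log2 fold change of -0.17 (-0.40 to 0.06). It was -0.41 where libraries were scaled by size alone and -0.32 in thinned cells. Mxd1 counted among the genes past the threshold in both of these and without replicate 2 of day 1 of ATV:4D9, and otherwise did not. After thinning, 2.57% to 3.27% of the day 1 cells held a Mxd1 UMI, against 4.19% to 5.07% in ATV:RSV, without overlap. Unthinned, the shares were 6.50% to 8.48% and 7.68% to 9.36%, and overlapped. How many of all genes were apart in the thinned share was not counted.

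Mxd3, the MXD gene known for its expression in S phase, was at 0.491, 0.217 and 0.191 CPM in ATV:RSV (24, 9 and 8 UMIs) and at 1.67, 2.78 and 3.34 CPM at day 1 of ATV:4D9 (106, 170 and 156 UMIs). The groups did not overlap, and the log2 fold change was 3.06 (1.89 to 4.24), and 4.27 in thinned cells. Within cluster 2, which held nearly all Mxd3 UMIs, the order was the opposite, also without overlap, at 2.41 ± 0.715 CPM (SD, n = 3) at day 1 (106 to 169 UMIs per mouse) and 10.5 ± 3.86 CPM in ATV:RSV (6 to 23 UMIs). After thinning, 0.366% to 0.655% of the day 1 cells held a Mxd3 UMI, a share below that of Snap25. It had 2, 0 and 14 UMIs at day 7 and 0 to 3 UMIs at days 14 and 28, where every mouse was at or under the floor of 3 counts. The fitted log2 fold changes of -1.92, -3.02 and -3.91 at days 7, 14 and 28 depend on the prior count at such values and did not pass the test (adjusted p = 0.349, 0.601 and 1.000 by limma-voom).

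**Figure D2:**
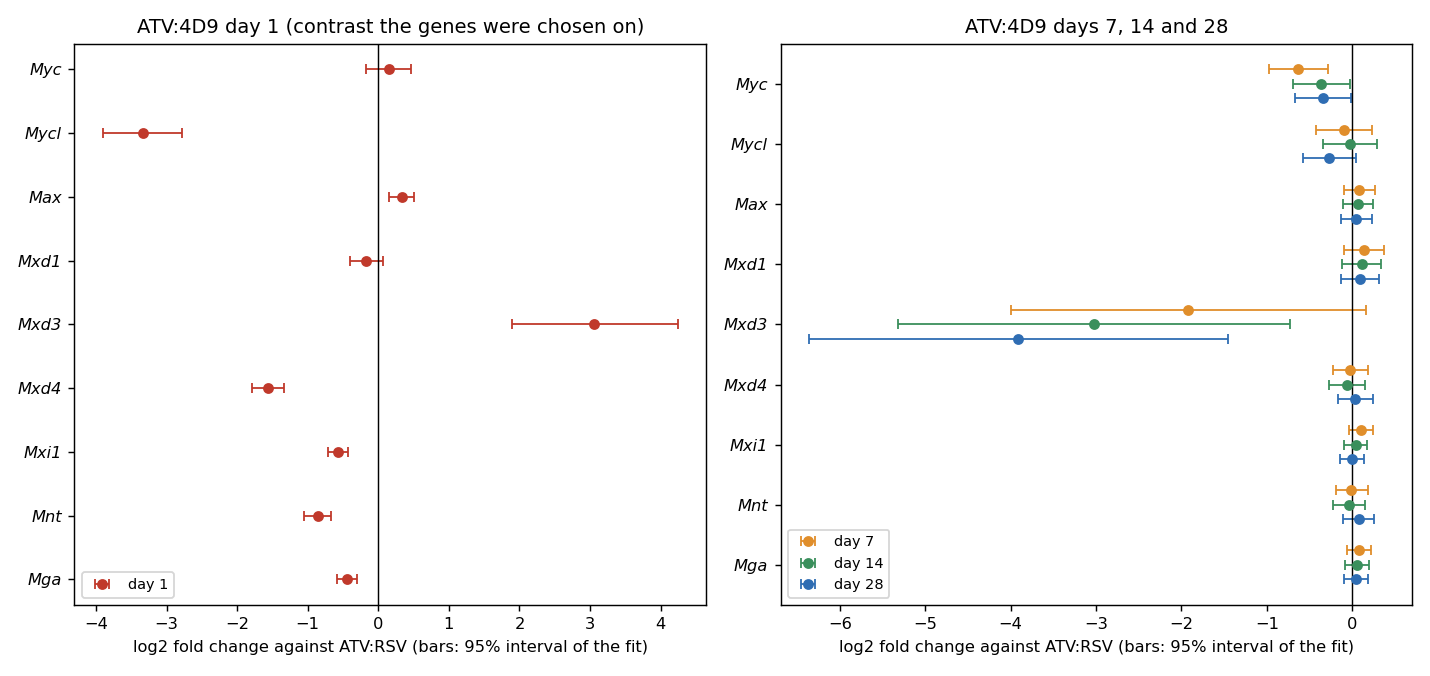
Log2 fold change against ATV:RSV (x axis) of each of the 9 genes, at day 1 on the left and at days 7, 14 and 28 on the right, with the 95% interval of the limma-voom fit as bars. At day 1 the values run from -3.34 for Mycl to 3.06 for Mxd3, and on the later days all genes but Myc and Mxd3 lie between -0.27 and 0.14.

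After day 1 the repressive partners other than Mxd3 overlapped with the controls. All Mxd3 levels of days 14 and 28 (at most 0.0661 CPM) lay below those of ATV:RSV (at least 0.191 CPM), at or under the floor. Nothing is read from this, since Mxd3 passed the filter only through day 1. The share of all genes apart from ATV:RSV on these days was not counted. Over the 9 later mice Mxd4 ranged from 54.9 to 74.0 CPM, Mxi1 from 52.6 to 63.3, Mnt from 30.7 to 38.5, Mga from 45.9 to 53.0 and Mxd1 up to 15.7, and each overlapped with ATV:RSV. The log2 fold changes of these 5 genes lay between -0.06 and 0.14 on the 3 later days, and the widest 95% interval, that of Mxd1 at day 7, ran from -0.09 to 0.37.

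At day 14, 0 of 9 genes passed the limma-voom test, where 0.400% of all genes passed. An unadjusted p under 0.05 was found for 2 of the 9, Myc and Mxd3, as for 770 of 14260 genes. At day 28, 0 of 9 genes and 0% of all genes passed, the same 2 of the 9 had an unadjusted p under 0.05, and 571 of 14260 genes had one. Mxd3 had 0 to 3 UMIs per mouse on these days and passed the filter only through day 1, so its p is not read. edgeR and DESeq2 also called 0 of the 9 genes on both days. Of all 14260 genes, edgeR called 59 at day 14 and 0 at day 28, and DESeq2 called 132 and 14. Days 7, 14 and 28 were compared with each other by a moderated F test, which does not involve the ATV:RSV mice in its contrasts. It called 0 of the 9 genes, where 1.44% of all genes passed. An unadjusted p under 0.05 was found for 0 of the 9 and for 1199 of 14260 genes. edgeR and DESeq2 also called 0 of the 9, where they called 226 and 395 of 14260 genes. Myc had an unadjusted p of 0.185 and an adjusted p of 0.884 in it, so the difference between day 7 and days 14 and 28 was not larger than the spread between mice. With the batch as a block, 1014, 122, 2 and 341 genes passed at day 7, day 14, day 28 and in the F test, against 568, 57, 0 and 205 without it, and of the network again Myc alone passed, at day 7 (-0.65, adjusted p = 0.0276).

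The levels within clusters are CPM of the UMIs of that cluster in a mouse, without further scaling. The deposited clusters divided the mice by group, because cluster 2 held 87.3% to 93.5% of the cells at day 1 of ATV:4D9 and 1.12% to 3.23% elsewhere. The clusters were made from the expression of these same cells, so the levels within them are given as a description. Over all cells 71.5% of all genes did not overlap between day 1 of ATV:4D9 and ATV:RSV. Within single clusters that share was not counted, so nothing is read from a lack of overlap there. The mean level of Mycl was lowest in cluster 2 in ATV:RSV and at days 7, 14 and 28. In ATV:RSV it was at 12.7 ± 2.10 CPM (SD, n = 3) in cluster 0, at 11.2 ± 0.860 in cluster 1 and at 3.89 ± 0.507 in cluster 2, the last from 3 to 6 UMIs per mouse. At day 1 of ATV:4D9 it was at 5.42 ± 0.418 CPM in cluster 0 (5 to 13 UMIs), at 4.18 ± 3.73 in cluster 1 (0 to 18 UMIs) and at 0.768 ± 0.162 in cluster 2 (30 to 56 UMIs). The few day 1 cells left in clusters 0 and 1 thus had a lower mean level than ATV:RSV cells of the same cluster, and the day 1 mice did not overlap with ATV:RSV in any of the 3 clusters. The fitted log2 fold change was -1.10 ± 0.463 (SE) in cluster 0 and -1.34 ± 0.458 (SE) in cluster 1, against -3.34 over all cells, and Mycl was not past the threshold in either cluster alone.

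Mxd4 was at 61.3 ± 6.15 and 70.1 ± 4.47 CPM in clusters 0 and 1 at day 1 of ATV:4D9. In ATV:RSV it was at 65.0 ± 5.15 and 75.7 ± 4.26, and the mice overlapped. In cluster 2 it was at 16.9 ± 1.09 CPM at day 1 and at 43.5 ± 3.01 in ATV:RSV (28 to 72 UMIs per mouse), with no overlap. Mnt in cluster 2 was at 16.6 ± 1.30 CPM against 28.9 ± 3.42, Mxi1 at 32.4 ± 1.21 against 45.7 ± 2.30 and Mga at 30.5 ± 1.98 against 45.5 ± 7.86, each without overlap. Outside cluster 2, Mxi1 (43.2 to 51.2 against 56.6 to 57.9 CPM) and Mga (34.6 to 37.2 against 43.6 to 50.1) did not overlap in cluster 0 either, nor did Mnt in cluster 1 (16.4 to 30.7 against 31.1 to 36.0). The mice overlapped for Mxi1 (47.3 to 59.7 against 58.3 to 63.9) and Mga (52.9 to 54.9 against 52.4 to 60.8) in cluster 1 and for Mnt in cluster 0 (24.8 to 38.2 against 35.5 to 39.8). With TMM scaling the log2 fold changes at day 1 were -0.28 in cluster 0 and -0.19 in cluster 1 for Mxi1, -0.38 and -0.07 for Mga and -0.27 and -0.77 for Mnt. Of the 8 genes in these fits 0 were past the threshold at day 1 in cluster 0, where 679 of 13329 genes were, and 1, Mnt, in cluster 1, where 1101 of 11989 genes were. The cells of cluster 2 differed between the groups, with Mki67 at 99.6 ± 34.5 CPM in ATV:RSV (76 to 165 cells per mouse) and 46.6 ± 13.7 CPM at day 1 of ATV:4D9, and the part of this in the values was not tested. Max in cluster 2 was at 41.6 ± 3.37 CPM at day 1 and 44.4 ± 9.62 in ATV:RSV, and overlapped.

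**Figure D3:**
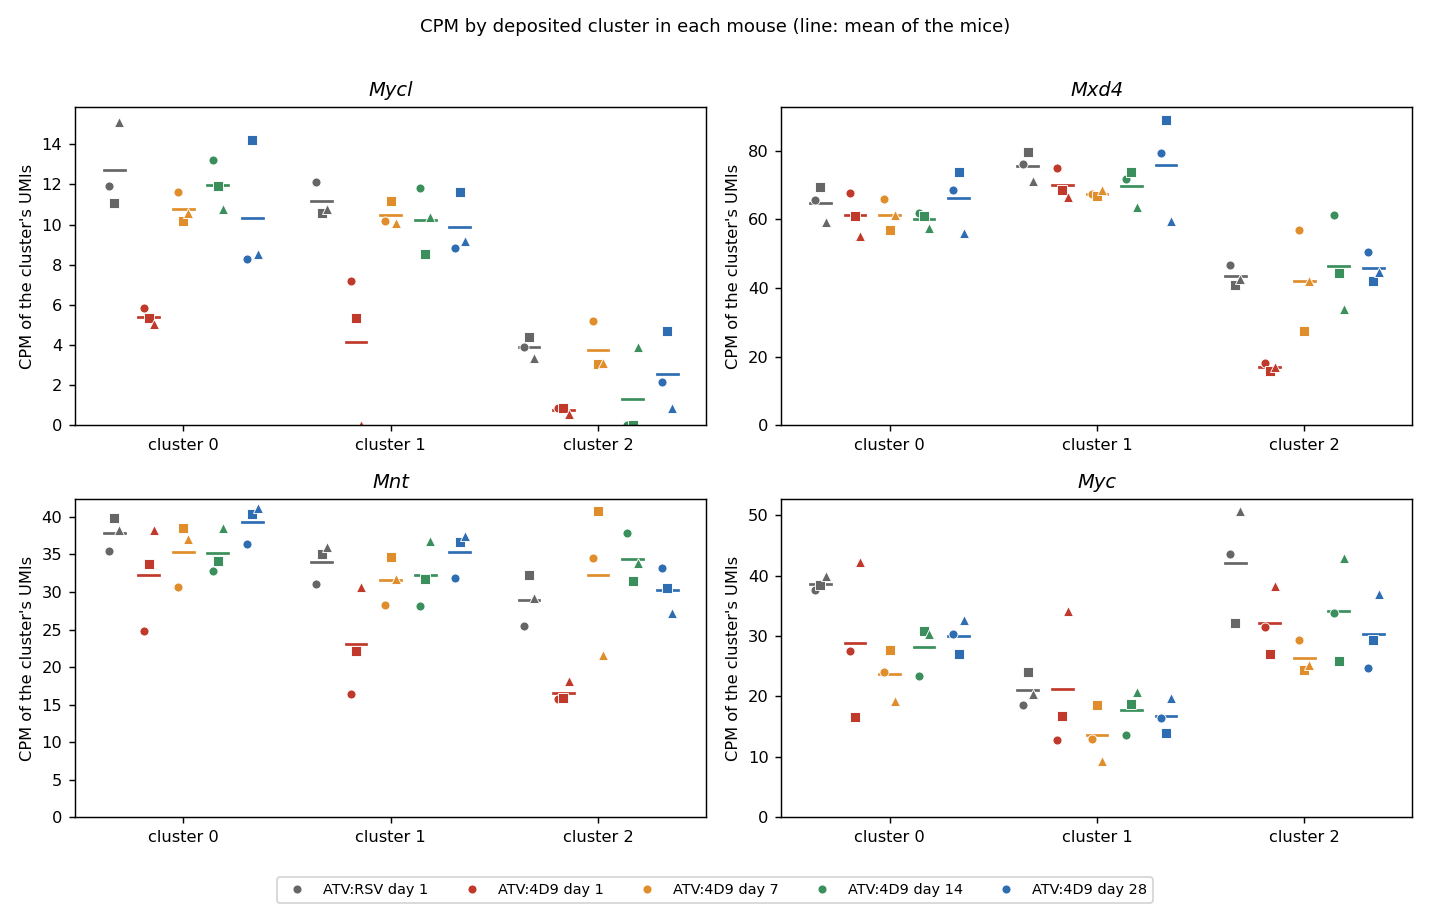
CPM of Mycl, Mxd4, Mnt and Myc (y axes, from 0) within deposited clusters 0, 1 and 2, 1 point per mouse with at least 50 cells in the cluster and a line at the mean of each group. Mxd4 at day 1 of ATV:4D9 is low in cluster 2, at 16.9 ± 1.09 CPM, and overlaps with ATV:RSV in clusters 0 and 1.

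The lower Myc of day 7 was measured in both large clusters. In cluster 0 Myc was at 38.7 ± 1.24 CPM in ATV:RSV and at 23.7 ± 4.26 at day 7, and a limma-voom fit on the sums of cluster 0 alone gave -0.68 ± 0.129 (SE) with an adjusted p of 0.00440. In cluster 1 it ranged from 18.6 to 24.1 CPM in ATV:RSV and from 9.39 to 18.6 CPM at day 7, and the fit gave -0.60 ± 0.202 (SE) with an adjusted p of 0.103, which did not pass. No other of the 8 genes tested in these fits passed in either cluster at days 7, 14 or 28, and Mxd3 did not pass their filter. Over all genes 570, 15 and 0 of 13329 passed on these days in cluster 0 and 690, 141 and 0 of 11989 in cluster 1. Myc was higher in cluster 0 than in cluster 1 in each of the 12 mice outside day 1 of ATV:4D9. The immediate early gene Fos was also higher in cluster 0 of these mice, at 4389 to 5484 CPM against 559 to 1298 in cluster 1. The part of cell handling in the cluster difference and in the cluster 0 call was not tested.

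Cells with a UMI of Mki67 or Top2a were compared with the other cells of the same mouse at day 1 of ATV:4D9. Mxd3 stood apart. It was at 5.79, 7.35 and 9.26 CPM in the marker cells of replicates 1, 2 and 3 and at 0.132, 0.110 and 0.215 CPM in the other cells, and 93.4%, 97.1% and 94.9% of its UMIs lay in marker cells. Over the groups, 412 of 432 Mxd3 UMIs at day 1 of ATV:4D9 and 36 of 41 in ATV:RSV lay in marker cells, so the few Mxd3 UMIs of the control mice came from such cells too. Outside the marker cells 5 to 8 Mxd3 UMIs were left per day 1 mouse, and Mxd3 did not pass the filter without the marker cells. Of the other 8 genes 6 were past the threshold at day 1 without the marker cells, as were 9472 of 14119 genes, from which nothing is read.

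Mxd4 was lower in the marker cells of every day 1 mouse, by -0.72, -0.58 and -0.51 on the log2 scale. Mycl had only 17, 17 and 7 UMIs in the marker cells, and no difference is given. Max (-0.19, -0.23 and -0.25) and Mxd1 (-0.14, -0.35 and -0.18) were lower by less. Myc differed by 0.11, 0.10 and 0.04, Mnt by 0.10, 0.01 and 0.07, Mxi1 by 0.15, 0.12 and 0.25 and Mga by 0.11, 0.13 and 0.19. Marker cells were deeper, with median UMIs of 10314 to 11378 against 7588 to 8418. With 3 mice, the 2 kinds of cells were not tested against each other.

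**Figure D4:**
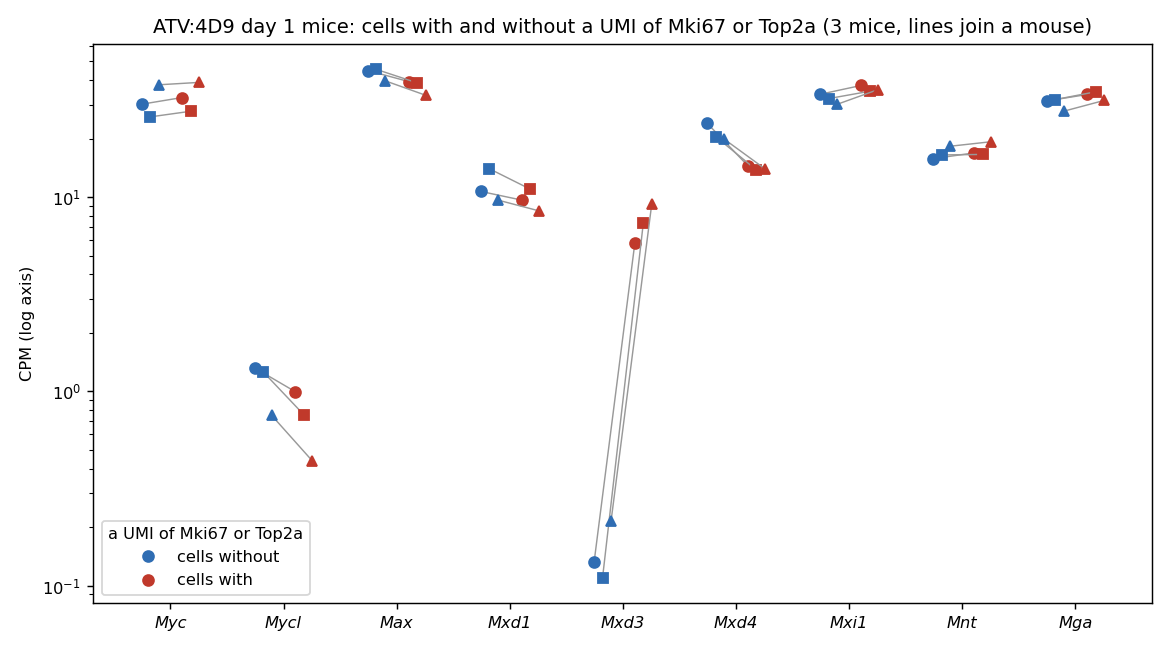
CPM on a log axis of each of the 9 genes in cells with and without a UMI of Mki67 or Top2a, joined within each of the 3 mice of ATV:4D9 day 1. Mxd3 lies at 5.79 to 9.26 CPM with and 0.110 to 0.215 CPM without the marker UMI.

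The genes around the network were taken as lists, which were chosen with earlier results of these data known. Their day 1 counts are a description and support nothing. Of 34 genes that MYC is known to activate, 33 were called higher at day 1 of ATV:4D9, as were 34.7% of all genes, and 1, Tfb2m (-0.26), was called lower, with a median log2 fold change of 1.37 against -0.05 over all genes. Ncl, a nucleolar protein of ribosome assembly, was at 243, 274 and 243 CPM in ATV:RSV and at 631, 744 and 660.2 CPM at day 1. Odc1, the first enzyme of polyamine synthesis, was at 53.8, 49.7 and 49.0 CPM and at 112, 119 and 115 CPM. None of these values overlapped between the groups. Cdk4, a kinase of the G1 phase (1.58), and Ldha, lactate dehydrogenase A (1.92), were higher on the same scale. In the cells of cluster 0 alone 1 of these genes was called higher at day 1, where 503 of 13329 genes were, and in those of cluster 1 alone 12 were, where 762 of 11989 genes were.

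The next counts stand beside 69.2% of all genes called at day 1, 34.7% higher and 34.6% lower. Of 12 corepressor genes of the SIN3 and NCOR complexes, through which MXD proteins and MNT act, 10 were higher and 1 lower at day 1 (median 0.61), among them the histone deacetylases Hdac1 (0.58) and Hdac2 (0.73), while the scaffold Sin3a was at 0.00. Of 10 partners of MGA in the PRC1.6 complex 7 were higher and 3 lower (median 0.52), with the repressor E2f6 at 1.70 and the Polycomb ring finger gene Pcgf6 at 0.76. Of 11 MYC coactivators 6 were higher and 4 lower (median 0.20). The helicases Ruvbl1 (0.95) and Ruvbl2 (0.97) were higher, and the acetyltransferase Kat5 (-0.71) and its scaffold Trrap (-0.35) were lower. Of 12 genes of MYC turnover 5 were higher and 2 lower (median 0.10), with the ubiquitin ligase genes Skp2 at 1.97 and Fbxw7 at 0.08. In the MLX arm, whose proteins pair with MLX in place of MAX and sense glucose, Mlx was at 0.31, Mlxip at -0.85 and Mlxipl at -0.54. Of 8 genes that MYC is known to repress 2 were higher and 3 lower (median -0.40). The cell cycle inhibitor Cdkn1a was at 2.30 and Cdkn1b, which holds cells in rest, at -0.99. As for the network, these day 1 values are a description.

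At day 7 few of these genes passed the test, where 3.98% of all genes passed. Those that passed, Npm1, Cdkn1a, Cdkn2c and Sap30, were also higher at day 1 (1.46, 2.30, 1.05 and 1.40 on the log2 scale). Of the activated targets 1 of 34 passed. This was Npm1, a nucleolar chaperone of ribosome assembly, which rose from 348, 367 and 370.0 CPM in ATV:RSV to 455, 459 and 495 CPM (0.38 ± 0.0507, SE, adjusted p = 0.000236 by limma-voom). The day 7 mice lay above every control mouse, and the median of the list was 0.07. Of the repressed targets 2 of 8 passed, both higher. The number was 1 or 2 when each mouse was left out in turn and 1 to 3 in the other alternatives, with 1 in cluster 1 (690 of 11989 genes). Cdkn1a rose from 65.0, 38.6 and 45.4 CPM to 88.6, 90.3 and 73.2 CPM (0.78 ± 0.178, SE, adjusted p = 0.0202), without overlap. Cdkn2c, another inhibitor of the cell cycle, rose by 0.99 ± 0.133 (SE, adjusted p = 0.000238). Of the corepressors 1 of 12 passed, Sap30 of the SIN3 complex, higher by 0.44 ± 0.105 (SE, adjusted p = 0.0278), and it did not pass without replicate 1 or 3 of day 7 or replicate 2 of ATV:RSV. No corepressor passed with library size alone (1199 of 14260 genes did), without the filter on low counts (475 of 22851) or in cluster 1 (690 of 11989), and 2 did with DESeq2 (871 of 14260). None of the MLX arm, the coactivators, the MGA partners or the turnover genes passed at day 7, where 3.98% of all genes passed, and none of any list passed at day 14 or day 28.

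**Figure D5:**
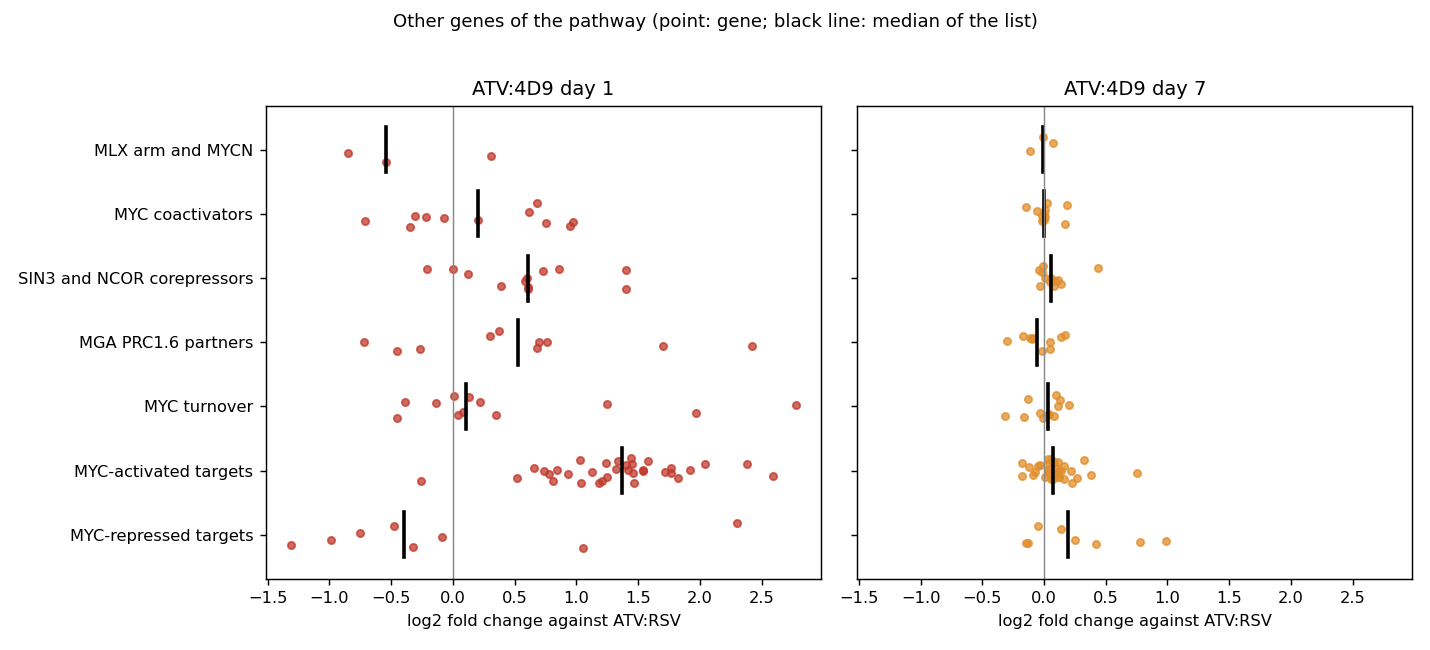
Log2 fold change against ATV:RSV (x axis) of each gene of the 7 lists around the network (y axis) at day 1 of ATV:4D9 on the left and at day 7 on the right, 1 point per gene with the median of each list as a line. The 34 MYC-activated targets have medians of 1.37 at day 1 and 0.07 at day 7.

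The genes whose levels over the 15 mice were most like those of Mycl, among 8888 genes with a mean of at least 5 CPM, were Snn, Thap3, Cask, Abtb1 and Arnt (Pearson r of log2 CPM 0.993, 0.992, 0.992, 0.991 and 0.989). The mice share the contrast of day 1, which moves most genes. Over the 12 mice outside day 1 of ATV:4D9 other genes ranked highest, Crlf2 (0.874), Fkbp5 (0.851) and B4galt1 (0.836). For Myc over the 12 mice the most alike were Zfp518a (0.955), Pstk (0.938) and Mitf (0.927). Within the network, Myc had an r of -0.664 with Mxd1, -0.663 with Max and -0.653 with Mxi1. With the other members, Mycl (-0.110) among them, r ran from -0.283 to 0.245. The libraries share depth and batch, and these values are a description.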

How the data were processed

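Single-cell RNA libraries of microglia from 15 mice were analysed. Per the labels, the authors mapped reads to mm10 with Cell Ranger 4.0.0 and deposited UMI counts per gene and cell, filtered and clustered in Seurat. The deposit also held the UMI count and the percent of mitochondrial UMIs of each cell. The paper names other Cell Ranger versions. Every deposited cell was used (667 to 24995 UMIs, at most 10% mitochondrial), and no doublet caller was run. Counts were summed per mouse and tested with limma-voom (limma 3.58.1, TMM scaling and filterByExpr of edgeR 4.0.16, minimum count 10 and minimum total 15, R 4.3.3) in 1 fit of 5 group means over all 15 mice, with Benjamini-Hochberg adjustment over all 14260 genes and a threshold of 0.05. For shares of cells with a UMI, cells were thinned to 3385 UMIs, which left out 10204 cells (280 to 350 per mouse at day 1 of ATV:4D9 and 459 to 1209 in the others). edgeR, DESeq2 1.42.0, other scalings, no filter, a batch block, single clusters and leaving out each mouse were alternatives, and scripts were tested on simulated data. The labels give the batch, and deviations from the group means had a mean correlation of 0.0539 within batches (30 pairs) and -0.0267 between them. The genes and lists were chosen with earlier results of these data known. The named genes were all 9 members, the pathway genes of the lists and the 5 most alike genes. Promoter windows came from RefSeq.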

Additional observations from a re-analysis of the deposited data

How the results depend on the processing

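The lower Myc at day 7 kept its direction in all alternatives (-0.76 to -0.44, adjusted p 0.00440 to 0.264) and was called in 7 of 15 fits that left out a mouse and in 9 of 12 others. It was not called in thinned cells (-0.61, adjusted p = 0.0733), cluster 1 (-0.60, 0.103) or without the filter (-0.64, 0.0553), so 0 genes of the network passed at day 7 in these (8 tested in cluster 1), where 500 of 13031, 690 of 11989 and 475 of 22851 genes did, and 0 to 1 without a mouse. Genes of the network called at day 1 numbered 0 in cluster 0 (679 of 13329 genes called), 1 in cluster 1 (1101 of 11989) and 7 to 8 without a mouse. At day 1, 22 recomputed log2 fold changes of the 9 genes moved by more than the spread between mice, most of them in single clusters or with library size alone. MYC-activated targets higher at day 1 numbered 1 in cluster 0 and 12 in cluster 1. At days 14 and 28, and between later days, 0 genes of the network passed in every alternative run. In the alternatives other than leaving out a mouse, few of the 11989 to 22851 genes tested passed either. They numbered 15 to 141 at day 14, 0 to 14 at day 28 and 186 to 395 between later days. The replicate block, pairing mice by batch, changed no call of the 9 genes (Myc at day 7 -0.65, adjusted p = 0.0276).

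Myc at day 1 (0.15) changed sign to -0.59 in cluster 0, -0.34 in cluster 1 and -0.09 with library size alone. On later days signs turned in these small differences, none of which was called. With library size alone, Max and Mga were at -0.01 at day 7 and Mxi1 at -0.02 at day 14. In thinned cells Mycl was at 0.01 at day 14 and Mnt at 0.02 at day 7. In cluster 1 Mycl and Mnt were at 0.03 at day 7. Without a mouse, the ranges were -0.12 to 0.06 (Mycl, day 14), -0.07 to 0.03 (Mxd4, day 7), -0.06 to 0.16 (Mxd4, day 28), -0.04 to 0.09 (Mxi1, day 14), -0.07 to 0.07 (Mnt, day 7) and -0.10 to 0.01 (Mnt, day 14). The cause was not tested. Depth limits Mxd3, with 0 to 3 UMIs per mouse at days 14 and 28.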
